A study of Populus tremula x Populus alba with 20 samples.

Results

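The gene module described here comprised 150 of the 31823 genes counted in apical buds of hybrid poplar. Its members rose between short days and chilling in wild-type buds (WT), and after chilling they stood below both WT libraries in all 8 libraries of plants overexpressing a TEMPRANILLO-like protein. Members were chosen by measured CPM (a gene's count over the library's total count, times 1000000), and 5 conditions had to hold. The WT mean after chilling was at least 1.5 times the WT mean before it, every overexpressor library was below both WT libraries after chilling, and the overexpressor mean was then at most 0.77 of the WT mean. The mean over all chilled libraries was at least 1 CPM, and the 8 overexpressor libraries were not all below both WT libraries already before chilling. Of the 169 genes that met these conditions, the 150 with the smallest ratio of overexpressors to WT after chilling were kept. Because these values chose the members, the difference from WT after chilling, the rise in WT and the order of overexpressors and WT before chilling are descriptions and carry no test.

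Buds of temperate trees stop growing and enter dormancy under short days, and a period of cold releases that dormancy so that growth can resume in warmth. Chilling reprograms a large part of the bud transcriptome along the way. TEMPRANILLO proteins belong to the RAV family of plant transcription factors and in Arabidopsis they are best known for holding back flowering. The deposited tables give gene identifiers with no names, so members are given by identifier with no stated role, and the level of the overexpressed genes was not checked.

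The plants were Populus tremula x Populus alba, INRA clone 717 1B4, either WT or 1 of 4 overexpressor lines. Lines TEML1_1ox and TEML1_2ox form the construct group TEML1ox, and lines TEML2_1ox and TEML2_2ox form TEML2ox. The promoter that drives each transgene is not given in the sources used here. All plants were potted from in vitro culture, grown in long days at 22 °C for 4 weeks by one account of the submitters and 6 by another, and then kept in short days. The first harvest, SD8, followed 8 weeks of short days. The second, CH2, followed 2 more weeks of short days at 4 °C, and both were taken at 7 h after lights on (ZT7). WT and each line had 2 replicates per harvest, which gave 20 libraries with 35779227 to 39352645 counts each. Each replicate was a pool, of 2 plants or of 3 buds depending on the source. Chilling, the added time in short days and the separate count tables of the 2 harvests cannot be told apart. In whole buds, fewer cells of a type and less RNA per cell cannot be told apart either.

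In WT buds the median member went from 4.53 CPM at SD8 to 13.2 CPM at CH2. In overexpressor buds it went from 4.53 to 7.89 CPM. The median ratio of CH2 to SD8 was 2.32 in WT (range 1.52 to 538, over 149 members with WT counts at SD8) and 1.55 in overexpressors (0.188 to 668). After chilling the overexpressor mean was 0.688 of the WT mean at the median, with quartiles of 0.609 and 0.721 and a range of 0.187 to 0.753. In absolute CPM the overexpressors gained 44.3% of what WT gained at the median member (quartiles 23.8% and 58.8%).

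The WT and overexpressor medians overlapped before chilling and were apart after it. The rule required the gap at CH2 for every member and, by its SD8 condition, favoured overlap at SD8. Set as a percentage of each member's WT mean at CH2, the median member stood at 38.6% and 46.1% in the 2 WT libraries at SD8 and at 32.8% to 43.8% in the 8 overexpressor libraries (median 38.4%). At CH2 it stood at 101% and 99.1% in WT and at 63.4% to 69.1% in the overexpressors (median 67.3%). The medians of the 8 chilled overexpressor libraries thus lay within a few percentage points of each other, all under the cap that the rule set. Single members varied more between these libraries, with a coefficient of variation of 17.1% at the median member. Summed over members, the share of a library's counts was 0.258 ± 0.0112% in WT (SD, n = 2) and 0.242 ± 0.0211% in overexpressors (SD, n = 8) at SD8. It was 0.714 ± 0.00789% and 0.495 ± 0.0223% at CH2, with the same n.

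**Figure D1:**
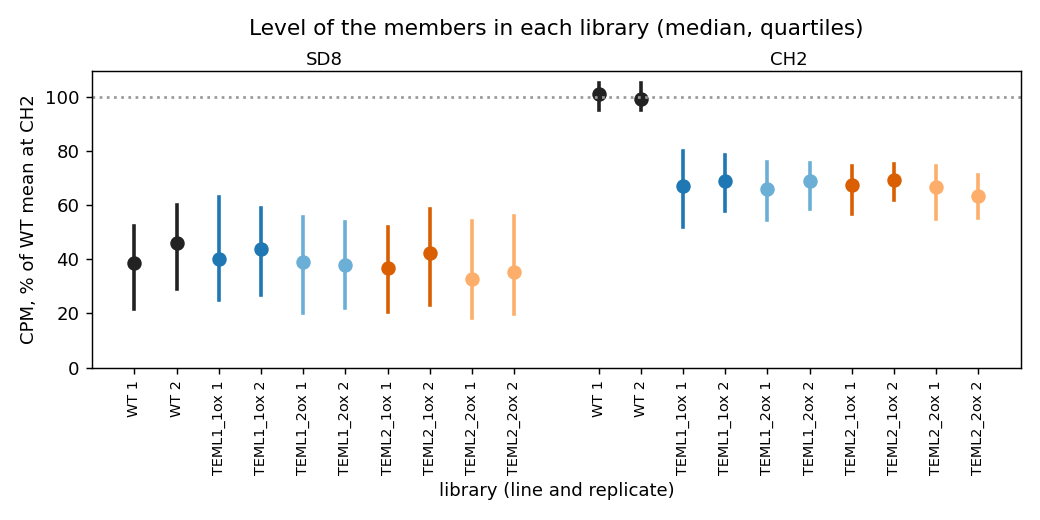
Level of the members in each of the 20 libraries, as a percentage of each member's WT mean at CH2 (y axis). Points are the median over members and bars the quartiles, with the harvest above and line and replicate on the x axis. At SD8 all 10 medians sit between 32.8% and 46.1%, and at CH2 the 8 overexpressor medians sit between 63.4% and 69.1% with WT near 100%. The gap at CH2 was a condition of the rule.

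The rule's steps show how selective each condition was. Of 22100 genes with a CH2 mean of at least 1 CPM, 3128 (14.2%) met the WT rise. In 643 of these, or 20.6%, all 8 overexpressor libraries were below both WT libraries at CH2, against 10.3% of the 22100 genes. All 8 were above both WT libraries in 117, or 3.74%, of the WT-induced genes. These genes were chosen by the same 2 WT libraries at CH2, which favours overexpressors lying below WT rather than above. The share above was not computed over the 22100 genes. The ratio limit left 197 genes and the SD8 condition 169. The last member inside the limit of 150 was PtXaAlbH.03G105600.v5.1 at a ratio of 0.753, and the first gene outside was PtXaAlbH.03G126700.v5.1 at 0.754, so nothing separated them. With 2 WT libraries per harvest, membership depended on each of them. Without WT replicate 1 or 2 at CH2, 127 and 133 of the members still met the rule, and without WT replicate 1 or 2 at SD8, 119 and 132 did.

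Each chilled WT library was also set beside genes chosen without it, as a description of how the ratios depend on it. The overexpressor libraries had still chosen these genes for being low, while the WT-induced genes given beside them were not so chosen. Chosen without WT replicate 1 at CH2, 309 genes met the rule, and replicate 1 lay above all 8 overexpressor libraries in 181 of them (58.6%). Among all WT-induced genes so defined the share was 27.1%. The median ratio of overexpressors to the library left out was 0.785, against 0.694 to the library that chose the genes and 0.956 over all WT-induced genes. Chosen without replicate 2, 274 genes met the rule and replicate 2 lay above all 8 in 174 of them (63.5%, against 30.5%), at a median ratio of 0.765 against 0.682. The ratio was nearer to 1 with the WT library left out than with the one that chose the genes, in both cases. As the low overexpressor values were part of the choice, neither share supports the difference from WT.

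Members varied widely in level and in how WT and overexpressors compared. The WT mean at CH2 was under 10 CPM in 70 members and 100 CPM or more in 18. The lowest WT library exceeded the highest overexpressor library at CH2 by a factor of 1.13 at the median member. This gap was at most 1.1 in 60 members and at least 1.5 in 9. At SD8 the overexpressor mean was above the WT mean in 75 members and below it in 75, where 41.4% of the 22100 genes were above. The rule's SD8 condition favours members with overexpressors above WT then. So does its WT rise, through low WT values at SD8, and the excess over all genes is not read as a trait of the members. The overexpressor mean was at most 0.77 of WT at SD8 in 30 members, at least 1.3 times WT in 23 and in between in 97.

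The name of incomplete induction covered most but not all members. On the log2 scale the overexpressor change between harvests was smaller than the WT change in 133 members, an order that the rule's limits at CH2 and SD8 favour. In the other 17 it was not smaller. By that split those 17 had to be below WT at SD8 too, and they stood there at a median of 0.580 of the WT level (range 0.113 to 0.706). The overexpressor mean rose in 128 members, by at least 1.5 times in 83, and did not rise in 22.

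**Figure D2:**
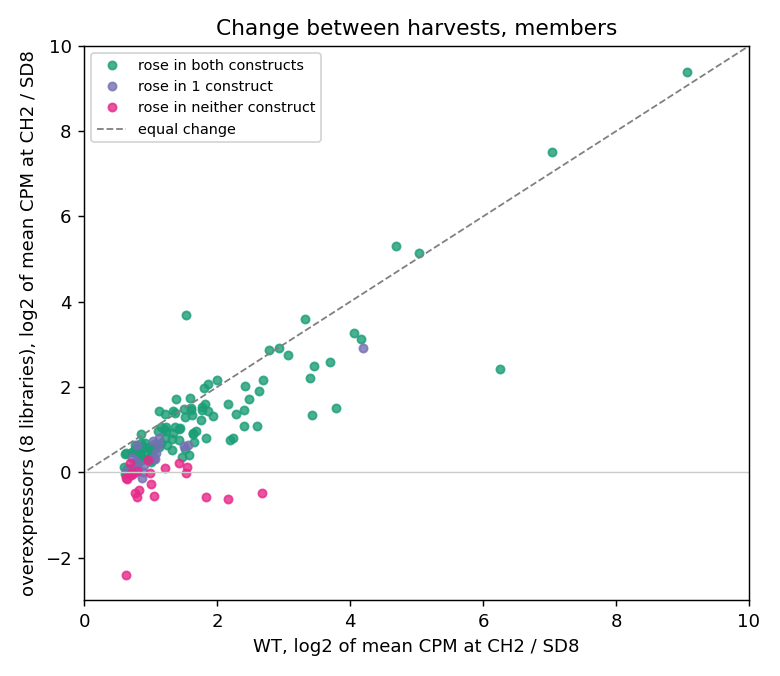
Log2 of the mean CPM at CH2 over SD8 in WT (x axis) and in the 8 overexpressor libraries (y axis), 1 point per member, coloured by the number of constructs in which the rise passed the edgeR test. The 17 members on or above the dashed line of equal change had an overexpressor change no smaller than WT, the others lie below it, and the 1 member with no WT counts at SD8 is not drawn.

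Members with the highest WT level and with the largest WT rise are shown by library. PtXaAlbH.10G158600.v5.1, the most abundant member in chilled WT, stood at 31.6 and 29.2 CPM in WT at SD8. In the overexpressors at SD8 its lowest, median and highest values were 12.9, 20.3 and 33.3 CPM. At CH2 it stood at 908 and 1082 CPM in WT and at 645 to 906 CPM in the overexpressors. The groups overlapped at SD8 and only just parted at CH2, where TEML1_2ox replicate 1, at 906 CPM, reached the lower WT library. The ratio of CH2 to SD8 was 32.7 in WT and 35.4 in overexpressors, so this member was among the 17 with no smaller change. PtXaAlbH.03G105600.v5.1 was the second most abundant, at 201 and 203 CPM in WT at SD8 and at 603 and 628 CPM at CH2. In the overexpressors it ran from 96.3 to 205 CPM at SD8 and from 353 to 537 CPM at CH2. The chilled overexpressor libraries were all lower, with both TEML1_2ox libraries, at 402 and 353 CPM, the lowest.

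PtXaAlbH.11G115600.v5.1 was nearly silent before chilling. Only 3 of the 10 SD8 libraries had counts, at 0.105 CPM in TEML1_1ox replicate 2, 0.107 in TEML1_2ox replicate 1 and 0.135 in WT replicate 2. After chilling it reached 36.9 and 35.8 CPM in WT. TEML2_1ox came nearest to WT, at 29.5 and 34.1 CPM, while TEML2_2ox stood at 15.0 and 9.15, TEML1_2ox at 28.9 and 12.9 and TEML1_1ox at 5.09 and 7.21 CPM. Within each construct the libraries of the 2 lines did not overlap after chilling. On few SD8 counts, the ratio of CH2 to SD8 was 538 in WT and 668 in overexpressors. This member was thus among the 17 with no smaller change. In TEML1ox the rise was 8.16 ± 0.89 on the log2 scale (SE, n = 4 against 4, edgeR adjusted p = 5.76e-07), and 7.46 without TEML1_2ox replicate 1 at CH2. In TEML2ox, with no count at SD8, the level was at least 1106-fold higher at CH2, taking 3 counts over the group as the floor (edgeR adjusted p = 1.14e-07).

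PtXaAlbH.11G082100.v5.1 showed the same layout at a lower level. Before chilling it had counts in 3 of 10 libraries, none above 0.131 CPM. At CH2 it stood at 8.21 and 9.08 CPM in WT, at 1.92 and 1.62 in TEML1_1ox, at 5.59 and 4.27 in TEML1_2ox, at 6.78 and 6.13 in TEML2_1ox and at 4.82 and 3.23 in TEML2_2ox. TEML1_1ox was again lowest and TEML2_1ox highest among the lines. The ratio of CH2 to SD8 was 132 in WT and 182 in overexpressors, again on few SD8 counts and among the 17. The rise in TEML1ox was 7.06 ± 0.75 on the log2 scale (SE, n = 4 against 4, edgeR adjusted p = 1.07e-07). It rested on the SD8 counts of TEML1_1ox replicate 2 and was 10.14 without that library, a value that depends on the prior count of the fit. In TEML2ox the CPM ratio was 264, with a counting interval of 90.0 to 1282 because 3 counts made up the SD8 level.

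The 2 members with the smallest ratio of overexpressors to WT at CH2 had low counts or uneven libraries. PtXaAlbH.07G094900.v5.1, at a ratio of 0.187, was at 0 in 13 of the 20 libraries. The ratio was 0.108 without TEML2_1ox replicate 1 at CH2 and 0.106 without replicate 2. At SD8 it was at 0 in both WT libraries and had counts in TEML1_1ox replicate 2 (4.30 CPM), TEML1_2ox replicate 1 (3.23 CPM) and TEML2_2ox replicate 2 (3.49 CPM) only. At CH2 it stood at 8.86 and 10.0 CPM in WT and at 6.99 and 7.17 CPM in TEML2_1ox, and at 0 in the other 3 lines. This on-or-off layout did not follow construct or replicate at SD8. Against the floor of 3 counts over the group, WT was at least 236-fold higher at CH2 than at SD8. PtXaAlbH.13G001500.v5.1, at a ratio of 0.247, stood at 3.05 and 1.84 CPM in WT at SD8 and at 6.26 and 7.82 CPM at CH2. Its overexpressor libraries ran from 0.824 to 2.29 CPM at SD8 and from 0.564 to 2.45 CPM at CH2. The WT libraries did not overlap between harvests, whereas the overexpressor ranges at SD8 and CH2 did, with TEML1_1ox replicate 2 the lowest chilled library and TEML2_2ox replicate 1 the highest.

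**Figure D3:**
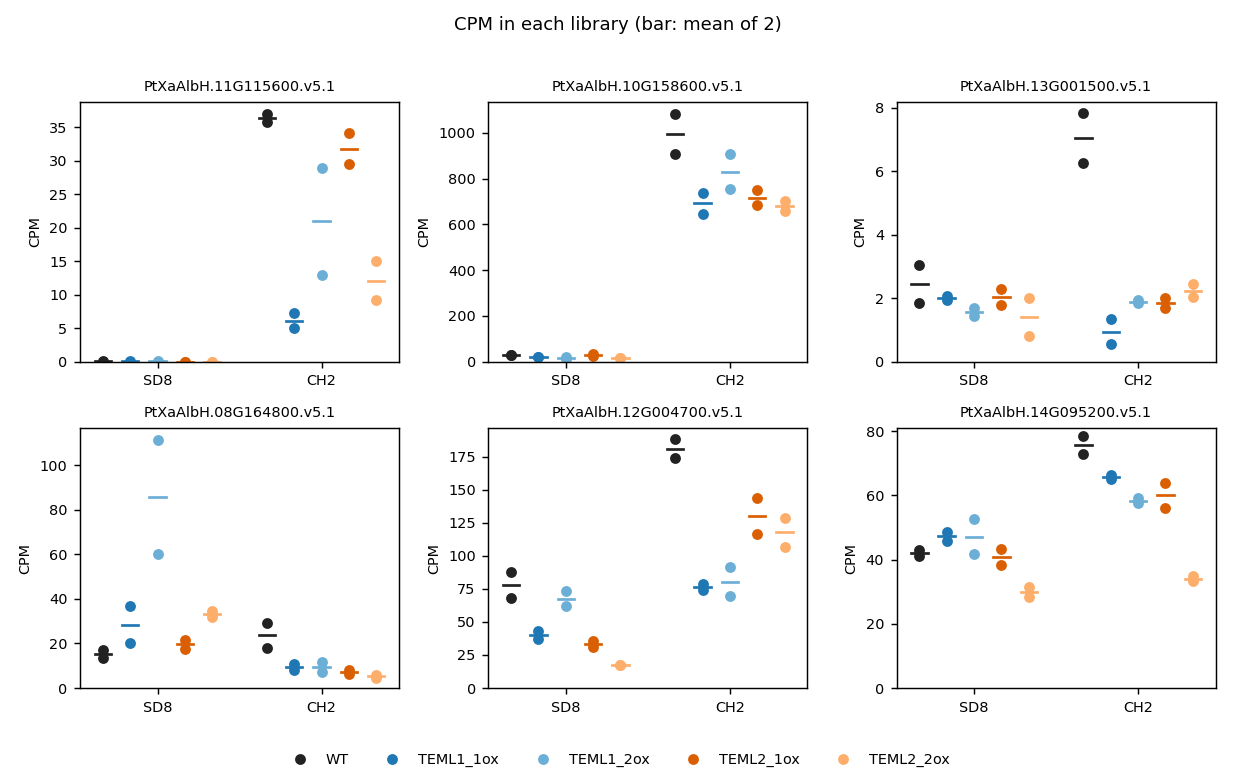
CPM of 6 members in each library (points) by harvest, with the mean of the 2 replicates of WT and of each line as a bar. At CH2 the WT libraries are highest in each panel, PtXaAlbH.13G001500.v5.1 stays at or under 2.45 CPM in the chilled overexpressors, and PtXaAlbH.14G095200.v5.1 is lowest in TEML2_2ox, at 34.8 and 33.4 CPM.

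How many members rose with chilling within the overexpressors was tested for each construct, with edgeR's quasi-likelihood test over all 27337 genes tested and an adjusted p under 0.05. This contrast was not part of the rule, but the rule capped the CH2 values of both constructs below WT. In TEML1ox 115 members rose and 3 fell, 118 of 150 in all, where 71.9% of all genes tested passed, 34.8% higher and 37.1% lower. In TEML2ox 120 rose and 1 fell, 121 in all, where 74.6% of all genes passed, 35.5% higher and 39.1% lower. Among the 2978 WT-induced genes outside the module, 2858 (96.0%) rose in TEML1ox and 2826 (94.9%) in TEML2ox. The members' shares were 76.7% and 80.0%. The rule chose members for low overexpressor values at CH2, and these values enter the tests. That choice itself favours fewer rises and a smaller change in members than in the other WT-induced genes. The median WT level at CH2 was 13.2 CPM in members and 36.8 CPM in these other genes, and its part in the calls was not tested. The median log2 change of members was 0.85 in TEML1ox and 1.04 in TEML2ox, against 1.21 and 1.21 in the WT-induced genes outside the module and -0.06 and -0.07 over all genes tested. These log2 changes use TMM scaling, which lifts CH2 by 0.29 on the log2 scale relative to plain CPM. On library totals alone, an alternative chosen after seeing the data, 92 members rose and 6 fell in TEML1ox and 91 rose and 1 fell in TEML2ox. The median of all genes was then -0.33 and -0.36. At an edgeR unadjusted p under 0.05, 101 and 99 members passed in this setting, where 20308 and 20907 of the 27337 genes did. The shares of all genes called higher and lower in it are not given here, so the fewer rises are not read as a trait of the members.

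Members fell into 3 kinds by these calls. In both constructs 108 members rose (72.0%), as did 2792 of the 2978 WT-induced genes outside the module (93.8%). The low CH2 values that chose the members also favour the smaller share. The rise passed in TEML1ox alone in 7 members and in TEML2ox alone in 12, which does not by itself show that these members differed between constructs. In 23 members it passed in neither construct. The 108 had a median ratio of CH2 to SD8 of 2.65 in WT and 1.95 in overexpressors, and a median WT level of 22.1 CPM at CH2. The 23 had 1.86 in WT and 0.950 in overexpressors, and a median WT level of 7.04 CPM. At SD8 the 23 stood at a median of 1.23 times the WT level and the 108 at 0.922 times, an order that the split by rise, with CH2 capped by the rule, itself favours. The part of the lower level in these calls was not tested.

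Among the 3 members that fell in an overexpressor construct, 1 fell in both. The rule chose members for low overexpressor values at CH2 and did not cap them at SD8, which favours a fall in these tests. PtXaAlbH.08G164800.v5.1 stood at 13.3 and 17.2 CPM in WT at SD8 and at 29.3 and 18.1 CPM at CH2. At SD8 it stood at 36.8 and 20.2 in TEML1_1ox, 111 and 60.3 in TEML1_2ox, 17.6 and 21.7 in TEML2_1ox and 32.1 and 34.4 CPM in TEML2_2ox. At CH2 all 8 overexpressor libraries lay between 4.66 and 11.8 CPM. The overexpressors were thus above both WT libraries before chilling and below both after it, while the higher WT library at SD8, at 17.2 CPM, came close to the lower one at CH2, at 18.1 CPM. It fell by 2.33 ± 0.38 on the log2 scale in TEML1ox (SE, n = 4 against 4, edgeR adjusted p = 2.53e-05) and by 1.78 ± 0.39 in TEML2ox (SE, n = 4 against 4, edgeR adjusted p = 0.000431). Without the TEML2_2ox line the fall in TEML2ox was not called (edgeR adjusted p = 0.0723). PtXaAlbH.07G094900.v5.1 passed as lower in TEML1ox (edgeR adjusted p = 0.0478), where it was at 0 in all 4 chilled libraries and at least 97.5-fold higher at SD8. As its SD8 counts came from 2 of 4 libraries, the call was lost in 13 of 30 alternative settings, at an adjusted p of up to 0.377.

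PtXaAlbH.03G133300.v5.1 was among the largest rises in TEML2ox and had low counts. At SD8 it was at 0 in all 4 TEML2ox libraries. At CH2 it stood at 1.09 and 2.06 CPM in TEML2_1ox and at 0.261 and 0.305 CPM in TEML2_2ox, against 2.13 and 4.21 CPM in WT. TEML2_1ox replicate 2 came within a small margin of the lower WT library, while TEML2_2ox was lowest of all lines. With the SD8 group set to a total of 3 counts, the level at CH2 was at least 46.9-fold higher (edgeR adjusted p = 0.000296).

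After chilling the members were compared between TEML1ox and TEML2ox. The TEML1ox mean was below the TEML2ox mean in 67 members and above it in 83, and the median absolute log2 difference was 0.13. The difference passed in 1 of 150 members, where 0.101% of all genes tested passed, 0.0506% higher and 0.0506% lower in TEML1ox. At an edgeR unadjusted p under 0.05, 26 members passed, where 2829 of 25696 genes tested did. DESeq2 called 7 members and a fit that gave every line a separate group 5, with their shares over all genes not given here. The member called by edgeR, PtXaAlbH.12G004700.v5.1, stood at 74.1 and 79.0 CPM in TEML1_1ox and 91.2 and 69.4 CPM in TEML1_2ox at CH2. It stood at 144 and 116 CPM in TEML2_1ox, at 129 and 107 CPM in TEML2_2ox and at 188 and 174 CPM in WT. All TEML1ox libraries were below all TEML2ox libraries, and both constructs were below WT. The log2 difference of TEML1ox minus TEML2ox was -0.66 ± 0.10 (SE, n = 4 against 4, edgeR adjusted p = 0.0405). The call was lost in 10 of 20 alternative settings, at an adjusted p of up to 0.149, including the removal of either TEML1_1ox replicate, TEML1_2ox replicate 2, either TEML2_1ox replicate, TEML2_2ox replicate 1 or either WT replicate. At SD8 the order of the constructs was the other way round in means, 53.8 ± 16.9 CPM in TEML1ox and 25.1 ± 9.42 CPM in TEML2ox (SD, n = 4 each), with no overlap between their libraries but an edgeR adjusted p of 0.894 over all genes. WT stood at 68.1 and 87.6 CPM then. The gene's ratio of CH2 to SD8 was 2.32 in WT and 2.56 in overexpressors, so it was among the 17 members with no smaller change.

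Before chilling no member passed the test between the constructs by edgeR. With edgeR 0 of the 145 members tested passed at SD8, where 0.00371% of all genes passed. At an edgeR unadjusted p under 0.05, 15 members passed, where 1456 of 26947 genes tested did. DESeq2 called 2 members, limma-voom 0 and the fit with separate lines 3, with their shares over all genes not given here. The median absolute log2 difference was 0.18. The difference between constructs in the change from SD8 to CH2 passed in 0 of 150 members by edgeR, where 0% of all genes passed. At an edgeR unadjusted p under 0.05, 15 members passed, where 1761 of 27337 genes tested did. DESeq2 called 3 of the 150 members, limma-voom 0 and the fit with separate lines 2, again without a share over all genes. A p that misses the threshold does not show that the constructs acted alike.

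Over the 8 overexpressor libraries the coefficient of variation of the median member was 29.8% at SD8 and 17.1% at CH2. Over all genes of at least 1 CPM it was 11.3% and 9.12%, with levels not matched between the sets. The rule capped the overexpressor values at CH2 and not at SD8, so the 2 harvests are not compared in spread. TEML2_2ox was the line with the lowest mean in 53 members at SD8 and 55 at CH2, with ties left out. It was lowest in 25.4% of the 22100 genes at SD8 and in 16.0% at CH2. TEML2_1ox was lowest in 48 and 24 members, TEML1_2ox in 35 and 34 and TEML1_1ox in 11 and 36. Over the 22100 genes the shares at SD8 and CH2 were 35.6% and 26.9% for TEML2_1ox and 23.6% and 25.7% for TEML1_2ox. For TEML1_1ox they were 15.3% and 31.3%. The highest mean at SD8 was that of TEML1_1ox in 52 members, TEML1_2ox in 37, TEML2_2ox in 33 and TEML2_1ox in 28. Over the 22100 genes TEML2_2ox was highest at SD8 in 45.9%, TEML2_1ox in 22.2%, TEML1_2ox in 19.3% and TEML1_1ox in 12.5%. The 2 lowest medians of all libraries, 32.8% and 35.4% of the WT level at CH2, were those of TEML2_2ox at SD8, which is the line whose SD8 libraries were known to stand apart from earlier results of these data.

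TEML2_2ox was compared with the mean of the other 3 lines at SD8, a contrast that the rule did not use. Of the 145 members tested, 34 were lower in TEML2_2ox (23.4%) and 5 higher (3.45%), 39 in all. Over all genes tested 20.2% passed, 8.42% lower and 11.8% higher. Among WT-induced genes outside the module 473 of 2955 were lower (16.0%) and 169 higher (5.72%). The members' share of lower calls thus exceeded that of all genes and, by less, that of the other WT-induced genes, with no test made of either difference. Fewer members were called without TEML2_2ox replicate 1 or without replicate 2, but the line then had 1 library. The calls over all genes in these settings are not given here, so the drop is not read as a trait of the members. The 34 lower members had a median log2 difference of -0.92, and stood at 0.487 of WT in TEML2_2ox and 0.865 of WT in the other lines at the median. After chilling the same 34 stood at 0.637 of WT in TEML2_2ox and 0.693 in the other lines. Their choice by the SD8 difference, with CH2 capped by the rule, itself favours a smaller gap at CH2. Of the 34, 26 rose in both constructs and 30 rose in TEML2ox, where 72.0% and 80.0% of all members did. The low SD8 values of TEML2_2ox that chose the 34 also enter these chilling tests and favour a rise, so the counts carry no support.

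**Figure D4:**
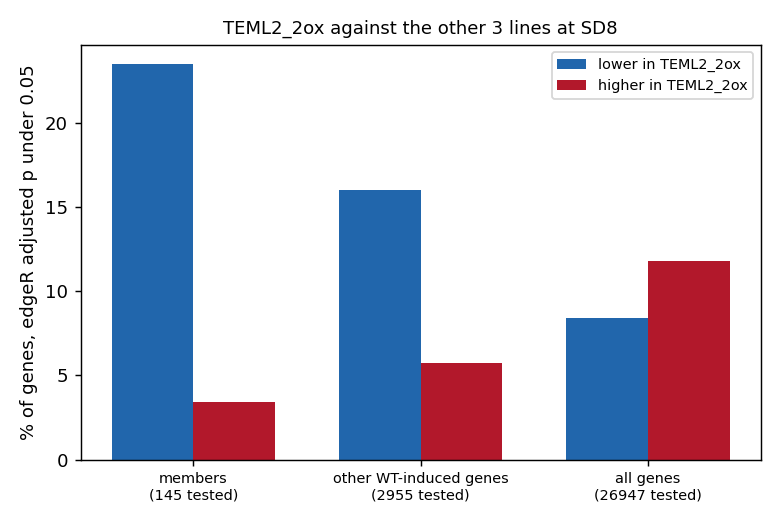
Percentage of genes lower (blue) and higher (red) in TEML2_2ox than in the mean of the other 3 overexpressor lines at SD8, by edgeR adjusted p under 0.05 (y axis), for the members, the other WT-induced genes and all genes tested. Lower calls make up 23.4% of members, 16.0% of other WT-induced genes and 8.42% of all genes, and higher calls 3.45%, 5.72% and 11.8%.

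The lowest members of TEML2_2ox at SD8 had low levels. PtXaAlbH.11G120500.v5.1 stood at 0.309 and 0.488 CPM in TEML2_2ox, at 1.25 and 1.65 in TEML2_1ox, at 3.31 and 5.25 in TEML1_2ox, at 4.10 and 1.53 in TEML1_1ox and at 1.21 and 1.87 CPM in WT. Both TEML2_2ox libraries were below all others, and TEML1ox ran above WT in 3 of 4 libraries. The log2 difference was -2.78 ± 0.47 (SE, n = 2 against 6, edgeR adjusted p = 0.00269), and it was not called without TEML2_2ox replicate 1 (adjusted p = 0.0652). PtXaAlbH.14G022700.v5.1 stood at 0.103 and 0 CPM in TEML2_2ox and at 0.106 to 0.782 CPM in the other lines, so that the nearest libraries almost touched. Its difference of -2.85 ± 0.90 (SE, n = 2 against 6, edgeR adjusted p = 0.0460) was lost in 11 of 17 alternative settings. It was -1.90 without TEML2_2ox replicate 2, and without replicate 1 the line had no count. At CH2 TEML2_2ox did not stand apart in either gene, at 2.58 and 1.78 CPM in the first and 1.3 and 1.07 CPM in the second. The second gene had a ratio of CH2 to SD8 of 2.61 in WT and 3.31 in overexpressors, a change no smaller than in WT.

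After chilling 1 member passed by edgeR between TEML2_2ox and the other 3 lines, where 0.0311% of all genes passed, 0.0156% higher and 0.0156% lower in TEML2_2ox. At an edgeR unadjusted p under 0.05, 33 members passed, where 1802 of 25696 genes tested did. DESeq2 called 6 members, with its share over all genes not given here. PtXaAlbH.14G095200.v5.1 stood at 34.8 and 33.4 CPM in TEML2_2ox at CH2 and at 56.1 to 66.3 CPM in the other 6 overexpressor libraries. WT stood at 78.5 and 73.0 CPM. TEML2_2ox was thus the lowest, the other lines lay between it and WT, and none overlapped. The log2 difference of TEML2_2ox from the other lines was -0.86 ± 0.07 (SE, n = 2 against 6, edgeR adjusted p = 0.000395), and it passed under all 18 alternative settings, at an adjusted p of at most 0.0445. At SD8 it was also lower in TEML2_2ox, at 28.4 and 31.5 CPM against 38.4 to 52.6 CPM in the other lines and 41.1 and 42.9 CPM in WT (log2 difference -0.68, edgeR adjusted p = 0.00155). Without TEML1_1ox replicate 1 at CH2, 3 members passed instead of 1.

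Members lay on all 19 chromosomes named in the identifiers, with chromosome positions themselves not given. By identifier, chromosomes 12, 9 and 14 held the largest share of members among their genes of at least 1 CPM at CH2, at 1.43%, 1.18% and 1.15%, and chromosome 19 the smallest, at 0.16%. In the order of the tables, 12 members formed neighbouring stretches, with 6 pairs on adjacent rows. The longest was a stretch on chromosome 9, singled out after its values were seen, of PtXaAlbH.09G123200.v5.1, PtXaAlbH.09G123300.v5.1, PtXaAlbH.09G123600.v5.1 and PtXaAlbH.09G123700.v5.1. Reads of near-identical copies may be shared between such neighbours, as the counting method is not given in the sources used here.

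The 4 genes of the chromosome 9 stretch rose 5.33 to 17.9 times in WT. PtXaAlbH.09G123600.v5.1 stood at 1.39 and 1.46 CPM in WT at SD8 and at 25.0 and 26.0 CPM at CH2. In the overexpressors at CH2 it ran from 11.5 to 17.8 CPM, with 7 of 8 libraries between 14.3 and 17.8 CPM. Before chilling TEML2_2ox stood out, at 4.40 and 3.28 CPM against 0.783 to 1.58 CPM in the other lines. Both TEML2_2ox libraries were above WT as well, and after chilling they were no longer apart, at 17.8 and 16.5 CPM. The log2 difference at SD8 was 1.60 ± 0.24 (SE, n = 2 against 6, edgeR adjusted p = 0.00143), not called without TEML2_2ox replicate 1 (adjusted p = 0.0509). PtXaAlbH.09G123300.v5.1 stood at 1.29 and 1.77 CPM in TEML2_2ox at SD8, against 0.316 to 0.561 CPM in the other lines and 0.656 and 0.622 CPM in WT. The difference was 1.78 ± 0.34 (SE, n = 2 against 6, edgeR adjusted p = 0.00541), not called without TEML2_2ox replicate 2 (adjusted p = 0.0963). PtXaAlbH.09G123700.v5.1 was also higher in TEML2_2ox at SD8, by 1.33 on the log2 scale (edgeR adjusted p = 0.00741). PtXaAlbH.09G123200.v5.1 differed by 0.17 (edgeR adjusted p = 0.607) and stood at 2.94 and 2.87 CPM in TEML2_2ox against 1.95 to 3.36 CPM in the other lines. Thus 3 of the 5 members higher in TEML2_2ox at SD8 lay in this stretch. PtXaAlbH.09G123500.v5.1, the gene inside the stretch that was no member, was not induced in WT, with a CH2 to SD8 ratio of 0.786, and stood at 0.970 of WT in overexpressors at CH2.

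**Figure D5:**
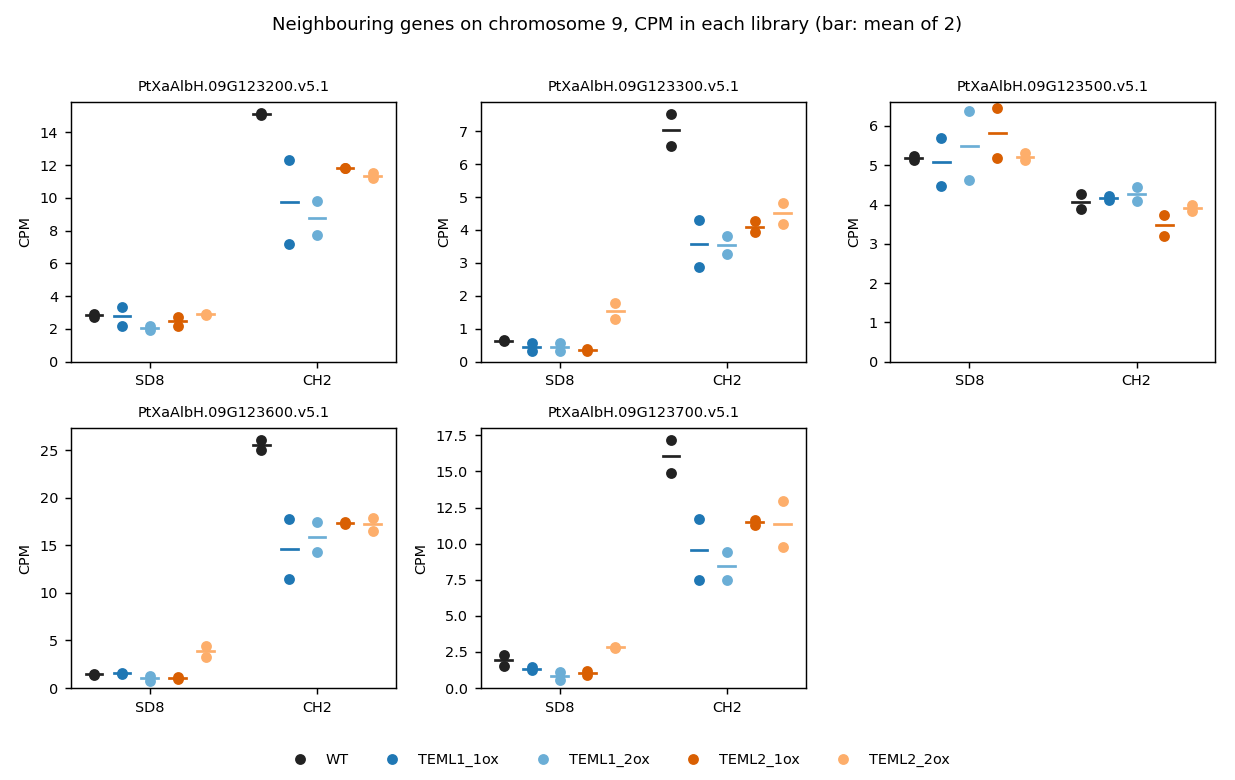
CPM in each library (points) by harvest for the 4 members of the chromosome 9 stretch and for PtXaAlbH.09G123500.v5.1, with the mean of the 2 replicates of WT and of each line as a bar. The 4 members are highest in WT at CH2, and in 3 of them both TEML2_2ox points lie above all other points at SD8, while PtXaAlbH.09G123500.v5.1 stays between 3.21 and 6.45 CPM throughout.

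The adjacent pair PtXaAlbH.03G082900.v5.1 and PtXaAlbH.03G083000.v5.1, also singled out after its values were seen, moved the other way in TEML2_2ox. PtXaAlbH.03G082900.v5.1 stood at 11.2 and 12.5 CPM in TEML2_2ox at SD8, at 15.4 to 29.2 CPM in the other lines and at 22.3 and 36.5 CPM in WT. At CH2 it stood at 85.9 and 74.1 CPM in WT and at 33.2 to 49.3 CPM in the overexpressors. TEML2_2ox was lowest at SD8 without overlap, and at CH2 its libraries, at 33.2 and 38.7 CPM, overlapped TEML1_1ox. PtXaAlbH.03G083000.v5.1 was lower in level, at 0.798 and 1.33 CPM in TEML2_2ox at SD8 against 1.87 to 3.35 CPM in the other lines, and at 12.3 and 9.27 CPM in WT at CH2 against 2.87 to 5.51 CPM in the overexpressors. The log2 differences of TEML2_2ox at SD8 were -1.09 (edgeR adjusted p = 0.00610) and -1.35 (edgeR adjusted p = 0.0148). In both genes every overexpressor library was below both WT libraries after chilling, at a mean of 0.534 and 0.390 of the WT level.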

How the data were processed

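Per the labels, apical bud RNA was made into libraries with a stranded mRNA kit and sequenced on an Illumina platform, and the replicates are called biological. The authors deposited raw, whole-number counts for each gene, in 1 table per harvest. The submitters' processing notes name HISAT2 with no version. The counting program, genome build and use of strand were not given in the sources used here. WT replicate 1 at SD8 was matched to a column with 1 digit too many in its name.

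CPM values and the member rule used the column totals. Tests used edgeR 4.0.16 in R 4.3.3 on the counts, with filterByExpr, TMM scaling, the quasi-likelihood F test and Benjamini-Hochberg adjustment over all genes tested, at a threshold of 0.05. Chilling within a construct and the difference in change came from 1 fit of all 20 libraries in 6 groups. Comparisons within a harvest used its 10 libraries, in 3 groups for constructs and 5 for TEML2_2ox. Both lines of a construct served as replicates, and the p-values thus count libraries of a line as independent and measure the spread between these libraries. The SE was computed from the log2 fold change and F and is approximate. Of the 150 members, 5 were not tested at SD8 because of the low-count filter, and all were tested otherwise. Folds against a group at 0 used 3 counts over the group, and the interval of a ratio with 3 counts is an exact 95% one, both for counting error only. Replicate pairs differed by a chi-square per degree of freedom of 6.75 to 29.6 and were kept as separate libraries.

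Members, lists and the line TEML2_2ox were chosen with earlier results of these data known. Genes were named as the 2 members with the smallest overexpressor to WT ratio at CH2, the 2 with the largest WT rise, the 2 with the highest WT level at CH2, the genes on either side of the limit, and for each test up to 2 higher and 2 lower members with the largest change. Within a harvest their libraries could not overlap. Pathway and marker lists were void, as no annotation was used here. The alternatives tried were RLE scaling, DESeq2 1.42.0, limma-voom (limma 3.58.1), no filter, a filter of 50 counts in 2 libraries, an adjusted p under 0.01, a replicate block, each line as its own group, no TEML2_2ox line, each library left out, other limits of the rule and, chosen after seeing the data, column totals with no TMM factor.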

Additional observations from a re-analysis of the deposited data

Results flagged for a closer look

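In groups of 4 libraries of a construct and harvest, 5 of 64 sets of values held a library far from the other 3, where chance gives about 1 in 20. Sets mostly at 0 need not follow that rate. PtXaAlbH.11G082100.v5.1 at SD8 stood at 0.105 CPM (4 counts) in TEML1_1ox replicate 2 and at 0 in the other TEML1ox libraries. It stood at 0.0838 CPM (3 counts) in TEML2_1ox replicate 2 and at 0 in the other TEML2ox libraries. PtXaAlbH.07G094900.v5.1 at SD8 stood at 3.49 CPM in TEML2_2ox replicate 2 and at 0 in the other TEML2ox libraries. PtXaAlbH.03G133300.v5.1 at SD8 stood at 0.695 CPM in TEML1_2ox replicate 1 and at 0 to 0.106 CPM in the other TEML1ox libraries. PtXaAlbH.11G120500.v5.1 at CH2 stood at 0.786 CPM in TEML1_2ox replicate 2 and at 2.44 to 2.70 CPM in the other TEML1ox libraries.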

How the results depend on the processing

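The count of members called for chilling stayed within 98 to 126 in TEML1ox and 92 to 129 in TEML2ox over 30 alternatives each, and no value reversed. For TEML1ox minus TEML2ox at CH2 the count of 1 became 0 at an adjusted p under 0.01, 7 by DESeq2, 5 with every line a separate group, and 0 to 1 with a library left out. At SD8 the count of 0 became 2 by DESeq2 and 3 with separate lines. For the difference in change the count of 0 became 3 by DESeq2 and 2 with separate lines. For TEML2_2ox at SD8 the count of 39 became 21 at an adjusted p under 0.01 and ran from 9 to 44 with a library left out. For TEML2_2ox at CH2 the count of 1 became 6 by DESeq2 and ran from 1 to 3 with a library left out. The cause of these moves was not tested, and the shares of all genes called under each alternative are not given here. A ratio limit of 0.67 left 70 members. On TMM-scaled CPM 142 of the 150 members met the rule, among 229 genes. The replicate block gave counts of 116 and 119 for chilling in TEML1ox and TEML2ox, 1 and 0 for the constructs at CH2 and SD8, 39 and 1 for TEML2_2ox at SD8 and CH2, and 0 for the difference in change. Replicate deviations correlated at -0.24 to 0.21 between lines at SD8 and at -0.23 to 0.29 at CH2. With mixed signs and 2 replicates per line, whether the replicate numbers paired the libraries cannot be told. Under that block the chilling call of PtXaAlbH.07G094900.v5.1 (adjusted p = 0.0583) and the TEML2_2ox call of PtXaAlbH.14G022700.v5.1 (adjusted p = 0.0652) were not made. WT had 2 libraries per harvest, and 70 members had a WT mean under 10 CPM at CH2.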
